A study of Mus musculus with 13 samples.

Results

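Mouse embryonic stem cell (ESC) lines able to lose Jmjd2a, Jmjd2b and Jmjd2c (Kdm4a, Kdm4b and Kdm4c) at once, the 2abc lines, were compared before and after the deletion across all measured genes. The samples were taken by their labels: all 6 samples of the 2abc genotype, 3 control and 3 OHT, out of 12 samples in the series, the other 6 being of the 2ac genotype (Jmjd2a and Jmjd2c only). The 2abc lines were cl280.4, cl324.9 and cl324.13. Each was homozygous for floxed alleles of Jmjd2a, Jmjd2b and Jmjd2c (f/f) and carried Rosa26::CreERT2, a Cre that OHT activates. The 2ac lines carried the floxed alleles of Jmjd2a and Jmjd2c. Control cultures were the same lines without OHT, so they carried the floxed alleles and the Cre too. The OHT cultures received 500 nM of this ligand of CreERT2 for 12 days and were harvested after 6 further days. All lines came from C57Bl/6 mice, and the cultures grew without serum on gelatin, in N2B27 medium with LIF, a MEK inhibitor (PD0325901) and a GSK3 inhibitor. This mixture, called 2i, holds ESCs in the naive state. No group received OHT without floxed alleles, so deletion and OHT with active Cre cannot be told apart. The design text calls the lines independently established. The names of cl324.9 and cl324.13 share a first number, whose meaning the sources used here do not give. Total RNA was hybridised to 1-colour Agilent arrays, and all 6 arrays lay on 1 slide.

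Jmjd2 proteins are JmjC-domain dioxygenases that take methyl groups off lysines 9 and 36 of histone H3. Methylation of lysine 9 marks heterochromatin and silent genes, and methylation of lysine 36 marks the bodies of transcribed genes. In ESCs Jmjd2b and Jmjd2c have been linked to self-renewal, the ability to divide without differentiating.

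On the arrays of the 2abc lines 50.1 to 63.6% of probes were well above background and 0 were saturated. The shares, control first, were 61.5 and 63.6% in cl280.4, 51.9 and 52.4% in cl324.9, and 50.9 and 50.1% in cl324.13. The lowest signal was 2.47 and 2.59 on the arrays of cl280.4 and 5.39 to 5.79 on the others. A gene's level is given below as log2 of its signal minus the 75th percentile of its array, and a change is OHT minus control of the same line on that log2 scale. A gene was called where limma gave a Benjamini-Hochberg adjusted p under 0.05 over all 22967 genes tested, of which 14661 had a symbol. Samples of 1 line are cultures of that line, so the p-values rest on the spread over 3 lines per genotype, which limits the precision. In such bulk RNA, fewer cells of a type and less RNA per cell cannot be told apart.

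The targeted genes were examined first. Kdm4a stood at 2.74, 2.75 and 2.76 in the controls (cl280.4 first, then cl324.9, then cl324.13) and at 1.86, 2.21 and 2.16 after OHT, the order of lines kept throughout. Kdm4b stood at 2.55, 2.54 and 1.80 in the controls and at -0.03, 0.13 and 0.12 after OHT. Kdm4c stood at 2.62, 2.32 and 2.20 in the controls and at -0.58, -0.82 and -1.08 after OHT. For each of these genes the groups did not overlap, and the library labelled OHT was below its control in every line. Limma called all 3 lower (adjusted p = 0.0114, 0.00451 and 0.00412), with 62.7, 21.4 and 10.8% of the control signal left. Without cl324.9 or without cl324.13 the Kdm4a call was lost and those of Kdm4b and Kdm4c were not. The sources used here do not give where the probes lie relative to the floxed exons. Kdm4d, the relative that was not floxed, was well above background on 0 of 6 arrays. Of 18 other JmjC demethylase genes, 0 rose and 1 fell, Kdm2b (an H3K36 demethylase and Polycomb partner), from 5.49, 5.42 and 5.54 to 4.81, 4.37 and 4.43 (change -0.95, SE 0.11, adjusted p = 0.00804).

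**Figure D1:**
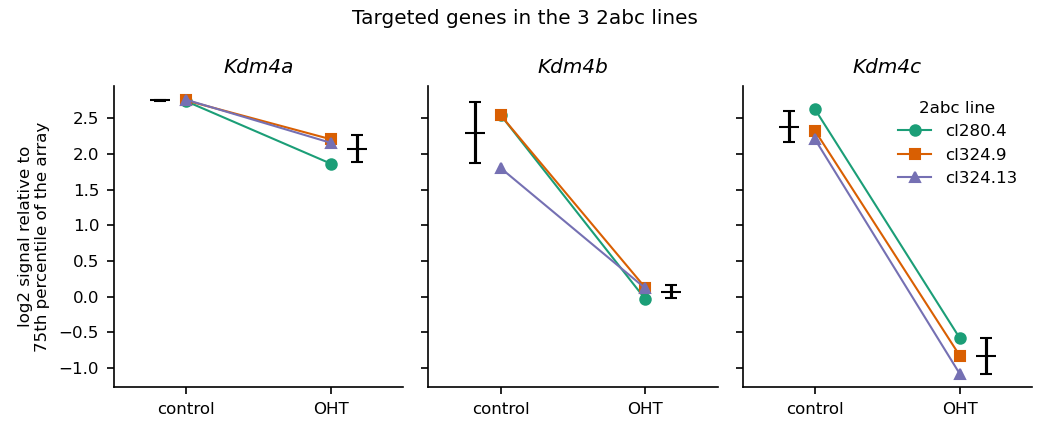
Level of Kdm4a, Kdm4b and Kdm4c (log2 signal minus the array's 75th percentile) in the control and OHT culture of each 2abc line. Lines join the cultures of 1 line, and black bars give mean and SD of 3 lines. Kdm4a keeps 62.7% of its control signal, Kdm4b 21.4% and Kdm4c 10.8%.

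The cells carried the markers of their label in both groups. All 10 ESC markers looked for were well above background on all 6 arrays, and their summed level, relative to the 75th percentile, was 635 to 659 in the controls and 584 to 611 after OHT. Pou5f1, Nanog and Sox2, the core transcription factors of pluripotency, had changes of -0.14, -0.22 and 0.16 that did not pass (adjusted p = 0.661, 0.162 and 0.517). Of the 10 markers 3 were called lower, Zfp42 (Rex1, a naive state marker) by -0.84, Tfcp2l1 by -0.56 and Tdgf1 by -0.49 (adjusted p = 0.0351, 0.013 and 0.0164). Of the 14 fibroblast markers, chosen for feeder cells, 7 were tested and their summed level was 5.49 to 5.92 in the controls and 5.21 to 5.54 after OHT, with Col3a1, Dcn, Lum and Postn not above background. Those above background on every control array were Col1a1, Col1a2, Thy1, Pdgfrb, Fbln1, Fbln2 and S100a4. Of the 7 the collagen gene Col1a2 was called higher (1.16, SE 0.25, adjusted p = 0.0313), and 0 were called lower. In sign, 2 of the 7 lay above 0 and 5 below, among them Col1a1 (-0.88) and Pdgfrb (-1.50) without passing. Of 12 blood markers 4 were tested, with summed levels of 16.0 to 17.5 and 12.1 to 15.7, namely Laptm5, Cd3e, Itgam and Hba-a1, each above background on all 6 arrays, while Ptprc, the pan-leukocyte marker, was not above background. The part of such cells in the results was not tested. Cd3e, a T-cell receptor subunit, fell (-0.88, SE 0.20, adjusted p = 0.0346) and 0 blood markers rose.

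Across all genes, 4062 were called in the 2abc lines, 17.7% of those tested. Of these 2003 were higher after OHT, 8.72% of genes tested, and 2059 were lower, 8.97%. In all but 1 of the called genes the 3 lines moved in a common direction. Most changes were moderate: 1369 called genes changed less than 1.5-fold, 1279 between 1.5 and 2-fold, 1084 between 2 and 4-fold, and 330 at least 4-fold. Among the last, 214 fell and 116 rose. Line cl280.4 changed least, with an SD of changes of 0.489 over all genes against 0.754 in cl324.9 and 0.790 in cl324.13. Its arrays also had more probes well above background, and the part of this in its smaller changes was not tested. A change of at least 2-fold was seen in 1169 genes in cl280.4, 2887 in cl324.9 and 3028 in cl324.13. Among 1672 called genes whose mean change in the other lines was at least 2-fold, the median ratio of the change in cl280.4 to that mean was 0.524, and 768 of them changed in cl280.4 by less than 50% of it or the other way. The count of called genes dropped most when a line with the larger changes was left out. Without cl280.4 it was 4702, without cl324.9 it was 231 and without cl324.13 it was 215. Of the 4062 genes, 3287, 227 and 212 were called again in those fits, each in its direction. Leaving out a 2ac line, which keeps the 2abc changes, gave 2321 (cl4), 2349 (cl5) and 4401 (cl6) called genes. The parts of the changes and of the error estimate in these counts were not tested.

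Genes were ranked by their mean level over the 6 samples into 4 bins, a ranking chosen after the data were seen. In the top bin 4.7% were called higher and 9.83% lower, and in the bottom bin 6.38% and 5.82%. The median size of a called change was 1.26 in the bottom bin and 0.50 in the top one, and the median SE of a change was 0.23 and 0.09, so a smaller change could be called at high levels. Over all genes of the top bin the median change was -0.08, below 0 in each line. Over the bottom bin it was 0.01, but the lines differed, with 0.17 in cl280.4, -0.21 in cl324.9 and 0.05 in cl324.13. Ranked by the control level alone, which is itself part of the change, the shares were 3.74% higher and 11.5% lower in the top bin and 8.85% and 3.71% in the bottom bin. Falls of highly expressed genes are to be read against the shift of the top bin.

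**Figure D2:**
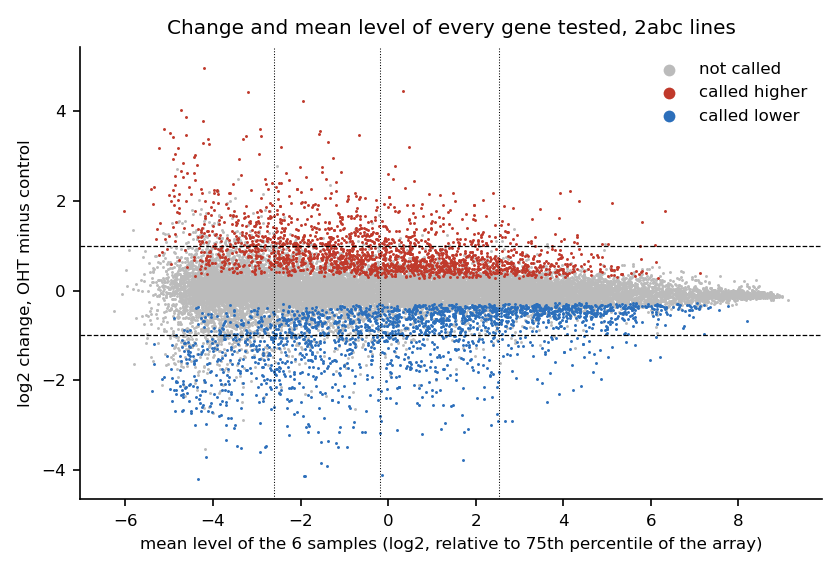
Change (OHT minus control, log2) of the genes tested against their mean level over the 6 samples of the 2abc lines, with genes called higher in red, called lower in blue and not called in grey. Dashed lines mark 2-fold changes and dotted lines the limits of the 4 level bins: red points thin out in the top bin, where 4.7% of genes were called higher and 9.83% lower.

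The largest changes were read among genes well above background on all 6 arrays. Cox6a2, a cytochrome c oxidase subunit of heart and skeletal muscle, stood at -2.01, -1.57 and -2.11 in the controls and at 0.65, 3.48 and 3.53 after OHT. Cd109, a surface protein that binds TGF-beta, went from -2.46, -2.30 and -2.47 to -0.30, 1.92 and 1.59. S1pr1, a receptor for sphingosine 1-phosphate, went from -3.27, -2.60 and -3.22 to -0.05, 0.52 and 0.38. The OHT samples of these genes all lay above the controls, and for Cox6a2 and Cd109 the rise in cl280.4 was the smallest. The rises were 4.45 (SE 0.78, adjusted p = 0.0186), 3.48 (SE 0.40, adjusted p = 0.00793) and 3.31 (SE 0.18, adjusted p = 0.00272). The other 7 of the 10 largest rises were those of Insm1 and Neurod1 (neuroendocrine and neuronal transcription factors), Rbmx (an X-linked RNA-binding protein, 3.21), Selenop (a selenium transport protein, 2.95), Greb1l (2.65), H2bu2 (a histone H2B gene, 2.65) and the olfactory receptor gene Olfr1466 (2.61). Histone H2B genes are much alike, and the probe may see more than H2bu2.

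Among the 10 largest falls, Gc, the vitamin D binding protein of serum, stood at 2.01, 1.96 and 1.79 in the controls and at -0.70, -2.78 and -3.09 after OHT. Ccl25, a chemokine of thymus and gut, went from 3.57, 3.69 and 3.53 to 0.93, -0.77 and -0.74. Tcfl5, a basic helix-loop-helix factor of spermatogenesis, went from 1.08, 0.73 and 1.12 to -1.82, -2.49 and -2.27. The groups did not overlap for any of them. The changes were -4.11 for Gc (SE 0.44, adjusted p = 0.0069), -3.79 for Ccl25 (SE 0.37, adjusted p = 0.006) and -3.17 for Tcfl5 (SE 0.21, adjusted p = 0.00364). Stk33 (a serine/threonine kinase) changed by -3.92, Msln (mesothelin, a surface protein of mesothelium) by -3.49, Gm38423 by -3.49, Clca3b (a chloride channel regulator) by -3.40, Eprn by -3.38 and 2300002M23Rik by -3.36, with adjusted p from 0.00272 to 0.0187, and Kdm4c completed the 10. Of these 20 genes 20 passed without cl280.4, 9 without cl324.9 and 7 without cl324.13.

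Among changes under 2-fold, the genes with the smallest p were read, a choice that favours changes even over the lines. Nqo1, a quinone reductase of the oxidative stress response, went from 1.52, 1.48 and 1.43 to 2.34, 2.32 and 2.34 (change 0.85, SE 0.07, adjusted p = 0.00451). Senp7, a SUMO protease, rose by 0.82 (SE 0.07). Slc34a3 (a phosphate transporter), Zfp941 (a zinc-finger protein) and Dsg2 (a desmosomal cadherin) rose by 0.90, 0.88 and 0.95. The other probes of Zfp941 and Dsg2 changed by only 0.14 and 0.20 without passing (limma adjusted p = 0.623 and 0.536 over all probes). Srpk1, a kinase of splicing factors, went from 2.18, 1.90 and 1.93 to 1.37, 1.12 and 1.04 (change -0.83, SE 0.07, adjusted p = 0.00485). The predicted genes Gm14325 and Gm14322, whose probes may see related copies, and the transcript 2610524H06Rik changed by -0.99, -0.94 and -0.96. Of the 10 with the smallest p, the replication gene Orc1 included, 10 passed without cl280.4, 9 without cl324.9 and 6 without cl324.13.

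Among strongly expressed genes, Tuba1a (an alpha-tubulin) went from 5.66, 5.57 and 5.49 to 6.46, 6.71 and 6.62 (change 1.02, SE 0.10, adjusted p = 0.00532). Rnaset2a (a lysosomal ribonuclease) rose by 0.74 and Plxnb2 (a semaphorin receptor) by 0.60. Gabarapl2, a protein of the autophagosome membrane, went from 6.76, 7.03 and 7.06 to 6.13, 5.06 and 5.21 (change -1.48, SE 0.27, adjusted p = 0.0198), while its paralog Gabarapl1 went from 4.37, 4.56 and 4.55 to 5.33, 5.58 and 5.71 (change 1.04, SE 0.10, adjusted p = 0.00506). Pttg1, the securin of the mitotic checkpoint, changed by -0.76. Pigp, of GPI-anchor synthesis, changed by -0.68 at the probe used, and its other probe by 0.73 without passing (adjusted p = 0.0998 over all probes). Without cl324.9 only Gabarapl1 of the 10 such genes passed, without cl324.13 0 did, and without cl280.4 all 10 did.

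Genes were then read in 43 lists by role, of which 947 members were tested, 106 of them called higher and 131 lower. All members have a symbol, so these counts are to be set against the 10.7% and 10.5% of genes with a symbol that were called higher and lower. Lists and members were chosen with earlier results of these data known. An excess over these shares is therefore a description and no separate support for a list. Of the 237 called members, 194 passed without cl280.4, 13 without cl324.9 and 14 without cl324.13, so nearly every list count below was lost when a cl324 line was left out. The sign of the list median stayed the same for all 43 lists without cl324.9 and for all but ERK and Wnt response without cl324.13. Without cl280.4 it turned for 5 lists with medians near 0: mesoderm (0.02 to -0.05), trophectoderm (0.15 to -0.04), G1 (-0.03 to 0.13), mitosis (-0.01 to 0.03) and glycolysis (-0.07 to 0.01).

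**Figure D3:**
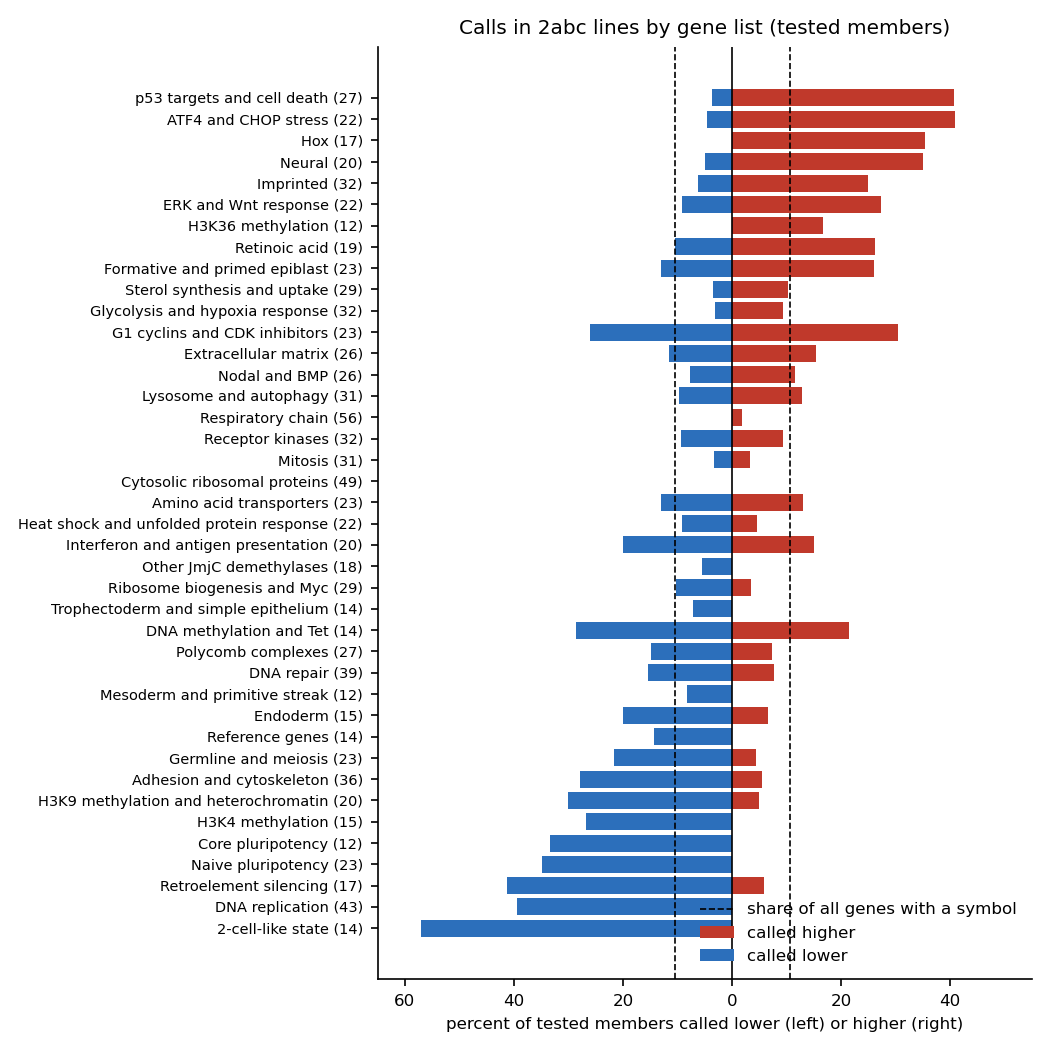
Percent of the tested members of each gene list that were called higher (right, red) or lower (left, blue) in the 2abc lines, for lists with at least 10 tested members (their number in brackets). Dashed lines mark the shares of all genes with a symbol, 10.7% higher and 10.5% lower: DNA replication and 2-cell-like genes extend to the left only, p53 and ATF4 targets mainly to the right.

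Of 43 DNA replication genes, 17 fell, by small amounts, and 0 rose. Of the 26 not called, 9 lay above 0, and the median change was -0.25, against -0.02 over all genes and -0.08 over the bin with the highest mean level. The median was -0.21 in cl280.4, -0.30 in cl324.9 and -0.20 in cl324.13. Orc1, the largest subunit of the complex that marks replication origins, went from 1.79, 1.73 and 1.75 to 0.97, 0.79 and 0.72 (change -0.93, SE 0.08, adjusted p = 0.00485). Rpa2, a subunit of the protein that coats single-stranded DNA, went from 3.74, 3.37 and 3.42 to 2.99, 2.80 and 2.67 (change -0.69, SE 0.08, adjusted p = 0.00832). Mcm5, of the replicative helicase, went from 6.40, 6.17 and 6.23 to 5.99, 5.72 and 5.64 (change -0.48, SE 0.08, adjusted p = 0.0148), and Lig1, the ligase that joins Okazaki fragments, changed by -0.47 (SE 0.07, adjusted p = 0.013). Each OHT sample of these genes was below every control sample. Without cl324.9 only 1 member was called, without cl324.13 0 were, and without cl280.4 12 were called lower. With the arrays scaled by their median 6 were called lower, and with no filter on dim probes 4 were, at medians of -0.24 and -0.25. With quantile normalisation the median was -0.14 with 12 called lower. In the authors' deposited table, fitted the same way, it was -0.13 with 16 lower and 2 higher.

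Replication genes are known targets of E2F transcription factors, so their RefSeq promoter windows (GRCm38.p6, 250 bases before to 50 after a transcript start) were searched for the E2F motif in the forms TTTCCCGC, TTTCGCGC, TTTGCCGC and TTTGGCGC on both strands, a form of 1 strand being able to overlap that of the other. A window was at hand for 35 of the 43 genes. The motif was in 5 of 13 that fell (38.5%) and in 8 of 22 that were not called (36.4%), against 3.85% of the 11678 tested genes with a window. The 5 promoters, picked out after their values were seen, are shown on the strand of the gene, 5′ to 3′, with the motif in capitals, for the stretch around it before the start. Orc1 lies at chr4:108579367-108579453 (plus strand), Mcm5 at chr8:75109296-75109427 (plus), Rfc3 at chr5:151651209-151651278 (minus), Cdc6 at chr11:98907953-98908080 (plus) and Mcm7 at chr5:138171981-138172108 (minus).
Orc1: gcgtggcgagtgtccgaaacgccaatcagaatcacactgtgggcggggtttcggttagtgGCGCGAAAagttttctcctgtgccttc
Mcm5: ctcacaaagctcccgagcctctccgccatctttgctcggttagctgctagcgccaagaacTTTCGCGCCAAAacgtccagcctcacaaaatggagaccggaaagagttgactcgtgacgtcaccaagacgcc
Rfc3: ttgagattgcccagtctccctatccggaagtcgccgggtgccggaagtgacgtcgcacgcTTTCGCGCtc
Cdc6: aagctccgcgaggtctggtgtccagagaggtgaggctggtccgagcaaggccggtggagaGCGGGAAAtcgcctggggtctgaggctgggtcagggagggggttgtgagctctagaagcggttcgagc
Mcm7: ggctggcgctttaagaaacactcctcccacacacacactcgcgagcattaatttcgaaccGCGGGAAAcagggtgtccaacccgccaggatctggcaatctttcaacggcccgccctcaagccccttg
These 5 were taken from the genes that fell, so their direction is no result of the search. They changed by -0.93 (Orc1), -0.48 (Mcm5), -0.55 (Rfc3), -0.41 (Cdc6) and -0.29 (Mcm7). A match is a description of letters, and binding was not measured.

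The G1 phase genes that act before replication moved both ways, 7 higher and 6 lower of 23 (median -0.03). Among those that fell were Cdk2, the kinase of S-phase entry (1.76, 1.54 and 1.54 to 0.87, 0.78 and 0.73, change -0.82, SE 0.08, adjusted p = 0.00587), its activating phosphatase Cdc25a (-0.49), its partner cyclin E1, Ccne1 (-0.53), and E2f2 (-0.41). Among those that rose were the CDK inhibitor genes Cdkn2b (1.14, SE 0.14, adjusted p = 0.00942) and Cdkn2d (0.48), Rb1, the retinoblastoma protein that restrains E2F (0.82), and Ccnd2, a D-type cyclin (above background on 2 of 3 control arrays, change 3.56). Of 31 mitosis genes 1 rose (Cenpe, a kinetochore motor, 0.48) and 1 fell (Kif20a, a motor of cytokinesis, -0.45). Of 39 DNA repair genes 3 rose and 6 fell. Brca2, of recombination repair, changed by -0.66, Rad54l by -0.46 and Chek2, a checkpoint kinase, by -0.48, while Rad50 rose by 0.48, Wrn by 0.35 and Nthl1 by 0.43. In none of these 3 lists was a member called without cl324.9 or without cl324.13.

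Genes of the 2-cell-like state, which few cells of an ESC culture enter and which resembles the 2-cell embryo, had the lowest median of the lists apart from the Jmjd2 genes themselves, -1.65. Of 14 tested, 8 fell and 0 rose. The median was -0.91 with normexp background correction, with 9 called lower, and -1.34 in the authors' deposited table, with 6 of 8 lower. Tmem92 went from 0.05, 0.69 and 1.42 to -2.02, -2.64 and -2.31 (change -3.04, SE 0.31, adjusted p = 0.00642). Zscan4c, a gene of telomere maintenance, went from 1.02, 1.22 and 1.90 to 0.23, -0.90 and -0.33 (change -1.72, SE 0.32, adjusted p = 0.0217). Tcstv1 went from -2.07, -1.29 and -0.57 to -3.11, -3.88 and -3.88, above background on 2 of 3 OHT arrays (change -2.31, SE 0.40, adjusted p = 0.0185). Each OHT sample was below every control sample, and the fall was smallest in cl280.4 for each of the 3. Eif1a fell too (-0.53, SE 0.08, adjusted p = 0.0151). The Zscan4 and Tcstv genes have near-identical copies that a probe may not separate. The list median was -0.51 in cl280.4, -2.09 in cl324.9 and -2.23 in cl324.13. Without cl324.9 0 members were called, without cl324.13 1 was, and without cl280.4 11 were.

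Pluripotency genes were lower in part. Of 23 naive pluripotency genes, 8 fell and 0 rose (median -0.42, by line -0.06, -0.37 and -0.51). Tfcp2l1, a transcription factor of the naive network, went from 5.56, 5.53 and 5.49 to 5.14, 4.87 and 4.87 (change -0.56, SE 0.08, adjusted p = 0.013). Pecam1, an adhesion molecule of naive cells, went from 0.71, 0.71 and 0.82 to 0.13, -0.69 and -0.59 (change -1.13, SE 0.17, adjusted p = 0.0139), and the transcription factor Tbx3 and Fbxo15 changed by -0.47 and -0.63. Of 12 core pluripotency genes 4 fell and 0 rose (median -0.32): Tdgf1, a Nodal co-receptor, by -0.49, Sall4 by -0.50, Dppa4 by -0.56 and Rif1 by -0.42, with adjusted p from 0.0164 to 0.0443. Neither list had a member called without cl324.9 or without cl324.13.

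Formative and primed epiblast genes, which mark the next step of development, split. Of 23 tested 6 rose and 3 fell (median 0.32). The adhesion glycoprotein gene Cd24a went from 1.90, 1.94 and 1.68 to 2.76, 3.26 and 3.10 (change 1.20, SE 0.12, adjusted p = 0.00642), and Etv5, an ETS factor downstream of FGF signals, and Sall2 rose by 0.63 and 0.79. The claudin gene Cldn6 changed by -1.11 (SE 0.14, adjusted p = 0.00986), Pou3f1 by -0.77 and Dnmt3b by -0.47. Of 22 immediate targets of ERK and Wnt signals 6 rose and 2 fell (median 0.03), with Phlda1 higher by 1.02 and Dusp6, an ERK phosphatase, higher by 1.39, and the Wnt targets Axin2 and Tcf7 each changed by -0.62. Spry4 was counted among the rises, but was well above background on 0 of the 6 arrays. Of 26 Nodal and BMP genes 3 rose (Bmp4 by 1.18, the activin receptor Acvr2a by 0.52, Bmpr2 by 0.72) and 2 fell (Id2, a BMP target, by -1.17, and Tdgf1). Without cl324.9 and without cl324.13 1 formative gene was still called higher, Wnt8a, and of the ERK and Wnt list 1 (Spry4) and 2 (Spry4 and Phlda1).

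Lineage genes of the nervous system were among the lists that rose. Of 20 neural genes 7 rose and 1 fell, with a median of 0.96, and 0.29, 1.17 and 1.26 by line. Among those above background on all 6 arrays 14 were tested, 6 called higher and 0 lower, at a median of 0.74. With normexp background correction of all 20 the median was 0.51. Neurod1 went from -2.50, -3.08 and -3.13 to -0.85, 0.25 and 0.20 (change 2.77, SE 0.35, adjusted p = 0.00962). Insm1 went from -3.34, -3.30 and -3.32 to -1.17, 1.06 and 0.62 (change 3.49, SE 0.49, adjusted p = 0.0117). Pax6, an eye and forebrain factor, was above background on 0 of 3 control and 3 of 3 OHT arrays and was at least 3.41-fold higher (adjusted p = 0.0042). The proneural gene Atoh1 had that pattern as well and was at least 2.88-fold higher (adjusted p = 0.00747). For these folds the dim group was set to the lowest signal of a probe well above background on each of its arrays, or to the gene's own where higher. In all lines OHT was above control, with the smallest rise in cl280.4. The exception was Hes5, a Notch target of neural progenitors, which went from -2.66, -2.63 and -2.48 to -4.13, -4.92 and -4.96, above background on 1 of 3 OHT arrays (change -2.08, SE 0.30, adjusted p = 0.012). Of the 8, 2 were called without cl324.9 (Pax6 and Atoh1) and 1 without cl324.13 (Pax6). Pax6 and Atoh1 were above background in the OHT group only, so their calls are no separate support for a rise of the list.

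Other lineages gave fewer calls. Of 12 mesoderm genes 0 rose and 1 fell (Gata2, -1.33, adjusted p = 0.0400), and of 14 trophectoderm genes 0 rose and 1 fell (the imprinted factor Ascl2, from 2.54, 2.44 and 2.40 to 1.51, 0.50 and 0.80, change -1.52, SE 0.19, adjusted p = 0.00983). Of 15 endoderm genes 1 rose, Gata6 by 0.88, and 3 fell: Sox7 (-1.94, above background on 2 control and 1 OHT array), Lamb1 (-0.61) and Lamc1 (-0.35). Of 23 germline genes 1 rose and 5 fell (median -0.29). The riser was Rec8, the meiotic cohesin, from 3.06, 3.19 and 3.05 to 4.11, 5.04 and 5.02 (change 1.62, SE 0.20, adjusted p = 0.00909), and among those that fell were Mael, a piRNA pathway gene (-1.59), the tubulin gene Tuba3a (-2.13), Tex11 (-0.92) and the germ-cell RNA-binding protein gene Dazl (-1.45). In these 4 lists no call was kept without a cl324 line.

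Hox genes, which set position along the body axis, rose in part: 6 of 17 rose and 0 fell. Hoxa7 went from -1.66, -1.33 and -1.16 to -0.36, -0.40 and -0.08 (change 1.11, SE 0.20, adjusted p = 0.0191). Hoxa3 rose by 1.56 and Hoxd8 by 0.97. The list median was 0.41, and 0.17 with normexp background correction. In the authors' deposited table, with 6 tested, it was 0.53. By line it was 0.67 in cl280.4, 0.18 in cl324.9 and 0.39 in cl324.13, and without cl280.4 2 members were called higher and 2 lower. Without cl324.9 or cl324.13 0 were called. Of 19 genes of retinoic acid handling and response 5 rose and 2 fell. The 2 that fell were enzymes: Aldh1a2, which makes retinoic acid, went from 1.37, 1.16 and 1.08 to -0.11, -1.11 and -0.85 (change -1.89, SE 0.29, adjusted p = 0.0138), and Dhrs3, which reduces its precursor, changed by -1.88. Aldh1a7, not above background in any control, was at least 2.64-fold higher (adjusted p = 0.00531). The receptor gene Rarb, above background on 1 of 3 control arrays, rose by 1.32. Of this list Aldh1a7 alone was called without either cl324 line.

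Imprinted genes, expressed from the copy of 1 parent, rose more often than they fell, 8 against 2 of 32 (median 0.29, and 0.22, 0.25 and 0.28 by line). Magel2 went from -2.83, -2.63 and -3.13 to -1.90, -1.96 and -1.92 (change 0.93, SE 0.14, adjusted p = 0.0126), and Mest from 1.37, 1.17 and 1.99 to 2.04, 1.96 and 2.77 (change 0.75, SE 0.12, adjusted p = 0.0144). Peg3, a maternally imprinted zinc-finger gene, rose by 1.01 and Mirg, of the Dlk1-Dio3 region, by 1.38. In Mest the controls and the OHT samples overlapped in level, since the control of cl324.13 lay above the OHT sample of cl324.9, but each line rose. Grb10, a growth inhibitor, changed by -0.57. No member was called without cl324.9 or without cl324.13.

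Of 27 targets of p53, the transcription factor of the DNA damage response, and cell death genes 11 rose and 1 fell, with a median of 0.48 and like values in the lines (0.33, 0.48 and 0.46). Perp, a desmosomal p53 target, went from 1.79, 1.83 and 1.48 to 3.68, 3.53 and 3.58 (change 1.90, SE 0.11, adjusted p = 0.00272). Gadd45a, a growth arrest gene, went from 0.46, 0.64 and 0.40 to 1.87, 2.09 and 2.01 (change 1.49, SE 0.12, adjusted p = 0.00429), and Btg2, an antiproliferative gene, from 1.18, 1.14 and 1.19 to 2.22, 2.41 and 2.33 (change 1.15, SE 0.10, adjusted p = 0.00485). The OHT samples of these genes lay above all controls in every line, cl280.4 included, and Perp, Gadd45a and Btg2 were called without either cl324 line. The death receptor gene Fas, above background on 1 of 3 control arrays, rose by 1.36. Aen, a nuclease that p53 also induces, changed the other way, from 5.51, 5.63 and 5.57 to 4.98, 4.77 and 4.75 (change -0.74, SE 0.09, adjusted p = 0.00986). Without cl324.9 and without cl324.13 3 members were called higher. With the arrays scaled by their median 4 were.

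Of 22 genes of the ATF4 and CHOP stress pathway, which answers amino acid shortage and misfolded protein, 9 rose and 1 fell (median 0.55). Ddit3, which encodes CHOP, went from 0.11, 0.34 and 0.03 to 1.04, 1.70 and 1.87 (change 1.38, SE 0.17, adjusted p = 0.00912), and the transcription factor gene Atf3 from -0.77, -0.58 and -0.34 to 0.17, 0.16 and 0.38 (change 0.80, SE 0.09, adjusted p = 0.00793). Stc2, a secreted stress protein, rose by 1.31 and the lipoprotein receptor gene Vldlr by 1.15, while Shmt2, the mitochondrial serine hydroxymethyltransferase, changed by -0.47. The list median was 0.13 in cl280.4, 0.57 in cl324.9 and 0.64 in cl324.13. Without cl324.9 0 members were called, without cl324.13 1 was, Ddit3, and with median scaling 5 were called higher. Of 22 heat shock and unfolded protein response genes 1 rose (the co-chaperone Bag3, 0.89) and 2 fell (the mitochondrial chaperonin Hspd1, -0.44, and Sdf2l1, -0.56), none of them without a cl324 line.

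**Figure D4:**
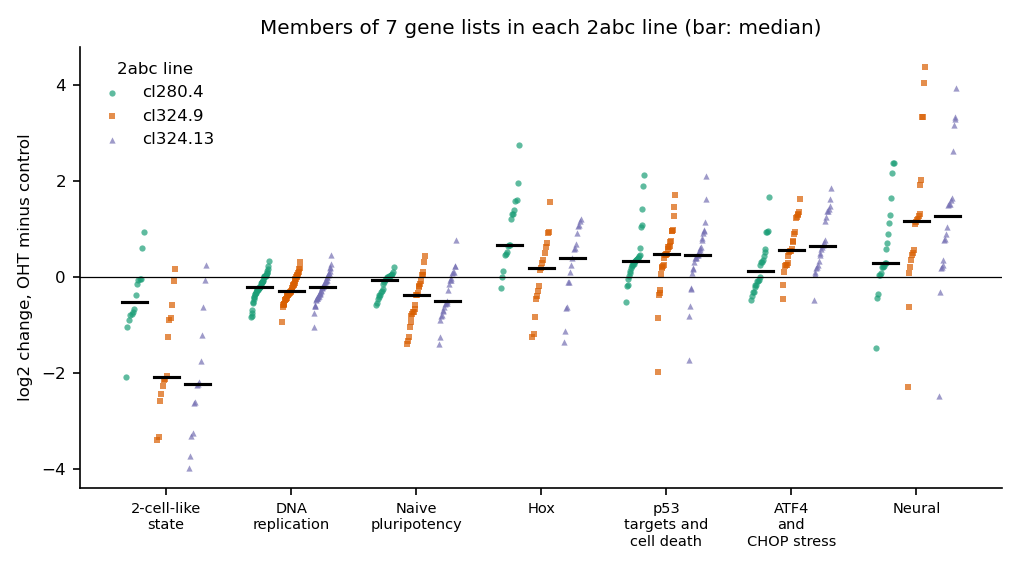
Change (OHT minus control, log2) of every tested member of 7 gene lists in each 2abc line, with black bars at the medians. The 2-cell-like list has medians of -0.51, -2.09 and -2.23 in cl280.4, cl324.9 and cl324.13, DNA replication -0.21, -0.30 and -0.20, and Hox 0.67, 0.18 and 0.39.

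Among chromatin genes, those of lysine 9 methylation and heterochromatin were called lower more often than higher, 6 against 1 of 20. Their median was -0.09, against -0.08 over the bin with the highest mean level. It was -0.02 with quantile normalisation and in the authors' deposited table. Uhrf1, which links DNA methylation to this mark, went from 6.60, 6.46 and 6.45 to 5.80, 5.74 and 5.74 (change -0.74, SE 0.07, adjusted p = 0.00567). Tasor, of the HUSH silencing complex, changed by -0.85, the deacetylase gene Hdac1 by -0.46 and Cbx1, the heterochromatin protein HP1 beta, by -0.67. Suv39h1, a lysine 9 methyltransferase, rose from -0.66, -0.91 and -1.05 to -0.12, -0.07 and -0.12 (change 0.77, SE 0.12, adjusted p = 0.014). Of 17 retroelement silencing genes 7 fell and 1 rose (median -0.22): Hells, a chromatin remodeller, went from 2.72, 2.42 and 2.39 to 2.07, 1.85 and 1.73 (change -0.63, SE 0.07, adjusted p = 0.00821), and Resf1, Morc3 and Apobec3 changed by -0.61, -0.41 and -0.49. The rise was that of Zfp708 (0.41), whose other probe had a change of -0.47 that did not pass. Of 15 lysine 4 methylation genes 4 fell and 0 rose (Ash2l -0.60, Men1 -0.45, Kdm1b -0.39 and Kmt2d -0.37, the other probe of Kmt2d at 0.05 without passing). Of 12 lysine 36 methylation genes 2 rose and 0 fell, the reader gene Zmynd11 (0.93) and the methyltransferase gene Nsd2 (0.59, its 3 other probes at -0.05, 0.20 and 0.15, none passing). No call of these 4 lists was kept without cl324.9 or without cl324.13.

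DNA methylation genes were called both ways, 3 higher and 4 lower of 14. Mbd1, a methyl-CpG binding protein that recruits lysine 9 methyltransferases, had the largest change, from -0.75, -0.59 and -0.63 to -2.86, -3.05 and -3.04 (change -2.32, SE 0.19, adjusted p = 0.00451), and was called without any single line. Dnmt3l, the cofactor of the de novo methyltransferases, went from 4.32, 3.70 and 4.10 to 2.72, 2.60 and 2.40 (change -1.47, SE 0.34, adjusted p = 0.0356), while Dnmt3a went from -0.79, -1.39 and -1.09 to -0.07, 0.73 and 0.80 (change 1.57, SE 0.30, adjusted p = 0.0224). Mbd2 rose by 0.67, and Mbd3 changed by -0.32. The groups of each gene named here were apart in level, and the calls other than Mbd1 were lost without cl324.9 and without cl324.13. Of 27 Polycomb genes 2 rose (Phc2 by 1.24, Phf19 by 0.62) and 4 fell (Cbx2 by -0.64, Mtf2 by -0.50, Pcgf5 by -0.64, Aebp2 by -0.74), with adjusted p from 0.0109 to 0.0447 and 0 called without either cl324 line.

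Genes of adhesion and the cytoskeleton fell more often than they rose, 10 against 2 of 36 (median -0.17). With quantile normalisation the median was -0.11, with 9 lower and 2 higher. In the authors' deposited table it was -0.07, with 8 lower and 2 higher of 31. Actn1, an actin crosslinker, went from 2.28, 2.24 and 2.35 to 1.70, 1.83 and 1.61 (change -0.57, SE 0.10, adjusted p = 0.0175), and vinculin, Vcl, and the integrin gene Itgb5 changed by -0.58 and -0.42, while Itgb1 rose by 0.95 (SE 0.15, adjusted p = 0.0148) and Tpm1 by 0.49, with 3 of its 4 other probes below 0, none passing. Of 26 extracellular matrix genes 4 rose (among them the protease inhibitor Timp1, 0.85, the collagen chaperone Serpinh1, 1.48, and vimentin, Vim, 0.65) and 3 fell, laminin chains all of them (Lama5 -0.51, Lamb1, Lamc1). Of 32 receptor kinases 3 rose (Ephb4 0.76, Ror2 0.57, Flt1 1.91) and 3 fell. The falls were those of Erbb3, the stem cell factor receptor Kit (-0.84) and Ddr2, a collagen receptor (-3.84). Flt1, Erbb3 and Ddr2 were not above background on all 6 arrays. With that filter 26 receptor kinases were tested, 2 called higher and 1 lower. Of 20 interferon and antigen presentation genes 3 rose and 4 fell: Tap1, a peptide transporter, went from -3.66, -3.56 and -3.43 to -1.99, -1.87 and -1.94 (change 1.62, SE 0.16, adjusted p = 0.00642), and Irf1 and the class I gene H2-D1 changed by -0.61 and -0.49. Of these 4 lists 0 members were called without either cl324 line.

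Metabolic and housekeeping lists gave few calls. Of 49 cytosolic ribosomal protein genes limma called 0, with 1 at an unadjusted p under 0.05 (median -0.11, and 0.02 in the authors' deposited table), and of 56 respiratory chain genes 1 rose (Cycs, cytochrome c, 0.29, its other probe at 0.00), although with quantile normalisation 8 rose and 16 did in the authors' deposited table. Of 32 glycolysis genes 3 rose (Pfkm 0.52, Adm 1.07, Eno2 0.96) and 1 fell (Egln1 -0.52). Of 29 sterol genes 3 rose and 1 fell. The 1 that fell was Hmgcs1, which feeds the mevalonate pathway, from 5.69, 5.52 and 5.57 to 4.09, 3.54 and 3.69 (change -1.82, SE 0.18, adjusted p = 0.00584), and the risers included Sc5d (0.51) and Stard4 (0.61, its other probe at 0.00). With quantile normalisation 7 sterol genes rose, and 10 in the authors' deposited table. Of 31 lysosome and autophagy genes 4 rose and 3 fell, among them Gabarapl1, Gabarapl2 and Tfeb, a factor of lysosome genes (-0.88). Of 23 amino acid transporters 3 rose and 3 fell, the falls being those of Slc1a1 (-4.13, above background on 1 of 3 OHT arrays), Slc38a5 (-3.49, likewise 1 of 3) and Slc6a15 (-1.77, 2 of 3), and the rises including Slc43a2 (0.96, SE 0.09, adjusted p = 0.00582). Of 29 ribosome biogenesis and Myc genes 1 rose (Mxd4, 0.75) and 3 fell (Ncl -0.41, its other probe at 0.13, Ddx21 -0.62, Nolc1 -0.33). Of 14 reference genes 2 fell, among them Gusb (-0.73). Of the calls in these lists only that of Gabarapl1 held without cl324.9 and only that of Slc43a2 without cl324.13.

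Some genes crossed the background. With no control array and every OHT array well above background there were 54 genes, 44 of them called, 36 of these with a symbol. With the reverse pattern there were 12, of which 7 were called, 4 with a symbol. Over all genes tested 17.7% were called. The patterns pick genes by the direction of their change, so these counts and adjusted p-values are no separate support for it. Mc3r, a melanocortin receptor, stood at -6.35, -5.24 and -4.70 in the controls and at -1.0, -1.13 and -0.83 after OHT, at least 13.3-fold higher (adjusted p = 0.00408). Ly6a, a stem cell surface antigen, stood at -5.51, -4.45 and -4.21 and at 0.09, -1.70 and -1.74, at least 12.0-fold higher and with its largest change in cl280.4 (adjusted p = 0.0167). Fgf1, a fibroblast growth factor, stood at -5.37, -5.32 and -3.91 and at -3.13, -1.91 and -0.75, at least 6.32-fold higher (adjusted p = 0.00912). Wnt8a and the sialyltransferase gene St8sia3 completed the 5 with the highest OHT level. The 4 that fell below background were Mrgprd, a receptor of sensory neurons (from -2.66, -2.07 and -2.0 to -6.25, -6.63 and -6.43, at least 6.46-fold lower, adjusted p = 0.00272), the phosphatase gene Ptpn22 (at least 2.02-fold, adjusted p = 0.00531), the sarcomere gene Mypn (at least 2.04-fold, adjusted p = 0.00452) and Serpinc1, antithrombin (at least 1.53-fold, adjusted p = 0.0384). Of these 9 genes 6 passed without cl324.9 and 6 without cl324.13.

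Calls were spread over all chromosomes, with chromosome 3 apart. Of its 665 genes with a symbol 25% were called higher and 3.01% lower, against 10% and 10.9% of the 13996 genes elsewhere. The median change was 0.11 in cl280.4, 0.36 in cl324.9 and 0.40 in cl324.13, while the medians of the other chromosomes lay between -0.12 and 0.06 in every line. In 2ac the median of chromosome 3 was 0.21. Cut into 10 stretches of equal gene number, the median was above 0 in each, from 0.13 to 0.49, and 28 of 66 genes rose in the eighth. Of the 166 chromosome 3 genes called higher 104 changed less than 2-fold. On chromosome 18 17.8% of 337 genes were called higher and 9.79% lower, at medians near 0 (0.02, -0.02 and 0.01), and on chromosome 4, which holds Kdm4a and Kdm4c, 8.54% were called higher and 14.8% lower. DNA copy number was not measured. Without the genes of chromosome 3, 3829 genes were called and every list kept its direction of median.

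**Figure D5:**
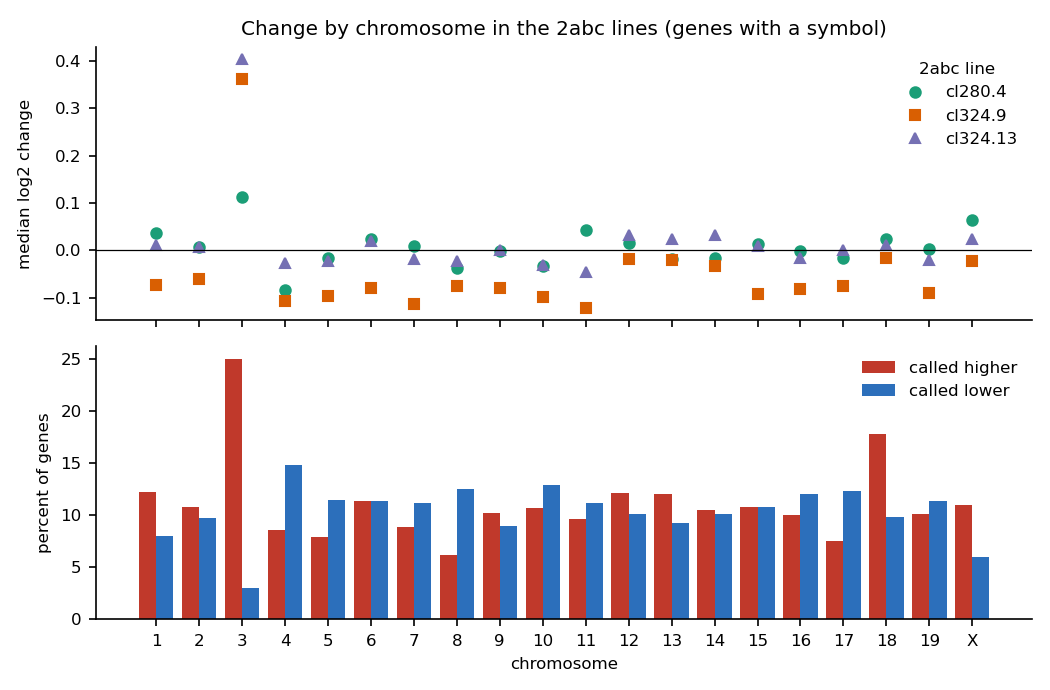
Upper panel, median change (OHT minus control, log2) of the genes of each chromosome in each 2abc line. Lower panel, percent of the genes called higher and lower: chromosome 3 has medians of 0.11, 0.36 and 0.40 and 25% of 665 genes called higher.

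The promoters of called genes differed in CpG content by the size of the change. CpG observed over expected, a measure of whether a promoter is a CpG island, had a median of 0.73 over 11678 tested genes with a window, 0.71 in genes called higher and 0.70 in genes called lower. Among genes that changed at least 2-fold it was 0.61 for 390 risers and 0.47 for 423 that fell. A ratio under 0.5 was found in 52.96% of the strongly lower, 34.9% of the strongly higher and 27.7% of the genes not called. In the bin of 2920 genes with the lowest ratio, whose median control level was -1.70, 4.01% were called higher and 7.02% lower by at least 2-fold. In the bin of 2918 genes with the highest ratio, at a median level of 1.86, these shares were 2.23 and 1.20%. CpG content and level thus moved together, and their parts in the result were not tested.

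The effect of the triple deletion was set against that of the 2ac deletion by the difference of the changes in the same fit, the genotypes differing in Jmjd2b and in the lines used. Limma called 0 of 22967 genes (0%), with 2516 at an unadjusted p under 0.05 and a lowest adjusted p of 0.123. Controls of the genotypes were separate samples, so the changes can be laid side by side. In 2ac line cl4, 1 of the 2 averaged OHT arrays lay on another slide than the control. In every other line control and OHT shared a slide. Of the genes called higher in 2abc 93.6% were also above 0 in 2ac, where their median change was 0.51, and of those called lower 94.4% were below 0 there, at a median of -0.52. The share of all genes with a common sign was not counted. Of the 2003 called higher, 845 were called higher in 2ac and 8 lower. Of the 2059 called lower, 878 were called lower in 2ac and 2 higher. In 2ac 2797 of all 22967 genes were called. Kdm4b itself, at -2.23 in 2abc and 0.12 in 2ac, had an adjusted p of 0.288 for the difference (-2.34, SE 0.26), so that even a gene deleted in 1 genotype alone was not called at this sample number. Among lists, the median of the ATF4 pathway was 0.55 in 2abc and 0.03 in 2ac, and that of the Hox genes 0.41 and -0.19, and whether these differ was not tested beyond the single genes.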

How the data were processed

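Agilent 1-colour arrays were analysed for 12 samples, 3 control and 3 OHT of each genotype, on 13 arrays. Both arrays of the OHT sample of 2ac line cl4 were averaged and counted as 1 sample. The authors deposited the scanner's processed signal intensities, which Feature Extraction background-subtracted and detrended within each array, per the file headers, and a series table of log2 values that its name calls loess-normalised. Limma is named without a version in the submitters' processing notes. The sources used here do not give further steps. Of the 59305 spots per array that were no controls, 184 to 253 carried outlier flags and were left out. The processed signal was taken as log2, the array's 75th percentile was subtracted, and spots of a probe were averaged. Probes entered the test if 1 or more of the 4 groups had all its arrays well above background. The probe with the highest mean stood for a gene. Of 55681 probes 27656 had 1 symbol, through RefSeq accessions.

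All samples were fitted together with limma 3.58.1 in R 4.3.3, with the line as a block and the OHT effect per genotype (4 residual degrees of freedom), and p-values were adjusted by the Benjamini-Hochberg method. 12 genes were tested on fewer than 12 samples. The block follows from the design, in which control and OHT are cultures of the same line. Deviations of paired samples correlated at 0.03, -0.02 and -0.01 in cl280.4, cl324.9 and cl324.13. The fit was also run on simulated data in which all 2abc lines changed alike. In the measured data cl280.4 changed less, so that run says nothing about calls that were lost without a cl324 line. All 2abc arrays lay on 1 slide, so the slide was the same for control and OHT of these lines. The 75th percentile of their signal was 504 to 595.

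Genes are named by rule: the targeted genes, the 10 largest changes in each direction above background on all 6 arrays, the 5 smallest p under 2-fold, the 5 highest control levels changed at least 1.5-fold, up to 4 called members per list and direction, and the 5 highest genes that crossed the background each way. Members and lists were chosen with earlier results of these data known. The 18 alternatives changed scaling, background correction, filter, block, samples and probes. The normexp alternative used the median signal, since no mean signal was in the columns used. In the authors' deposited table the 2abc columns had medians of 10.46 to 10.51. Some called list members are counted but not reported here by name.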

Additional observations from a re-analysis of the deposited data

Results flagged for a closer look

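The 14 reference genes, a list of genes often used for normalisation, had a median change of -0.077 in 2abc, with -0.09, -0.13 and -0.04 in cl280.4, cl324.9 and cl324.13. In 2ac the median was 0.05, and it was above 0 in each of the 3 lines. All lines of 1 genotype thus lay on the other side of 0 from those of the other. The difference was not tested. With quantile normalisation the 2abc median was 0.01, and it was 0.02 in the authors' deposited table.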

How the results depend on the processing

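Against 4062 called genes, the fit with no replicate block called 4184. With no filter on dim probes 1521 were called, 804 higher and 717 lower, 912 of them at least 2-fold. The 2abc samples alone gave 987, 550 higher and 437 lower, 599 of them at least 2-fold. Calls of at least 2-fold, 1414 in the fit reported, were 790 with normexp and 645 in the authors' deposited table. Leaving out 1 line gave 215 to 4702 called genes, 131 to 2195 higher, 84 to 2507 lower and 205 to 2124 of at least 2-fold, and without 2ac lines cl4 and cl5, which share the error estimate, 2321 and 2349 were called. With the mean over probes Pigp changed by 0.024 and Zfp708 by -0.026, since each has another probe of opposite sign. Of 216 named genes 25 passed in every alternative that tested them. The causes of the other changes were not tested. The number of lines limits the calls, and probes near background give only bounds.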

Other observations

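Genes were grouped by the start of the symbol, a grouping made after the values were seen, and are given beside the 10.7% and 10.5% of genes with a symbol called higher and lower. The groups of at least 30 genes with the highest shares called higher were Ttc (8 higher and 3 lower of 34), Map (9 and 9 of 42), the zinc-finger genes named Zfp (67 and 36 of 342, 19.6% higher) and the ring-finger genes named Rnf (13 and 6 of 70). Those with the highest shares called lower, beside Map, were the phosphatase subunits named Ppp (3 higher and 13 lower of 65), Cdc (1 and 6 of 31), Sh (1 and 6 of 33) and predicted genes named Gm (14 and 40 of 246). No test was made of these groups.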
